A study of Mus musculus with 2 samples.

Results

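The genes *Gata4*, *Gata6*, *Sox17*, *Dab2*, *Col4a1*, *Col4a2*, *Lama1*, *Lamb1* and *Sparc* were followed in single-cell RNA-seq of mouse embryonic stem (ES) cells. They are 9 of the 54146 genes in the files, and were chosen by name as genes of endoderm and of the basement membrane that endoderm makes. Each was found once in each file by its Ensembl identifier without the version. The study asked what wild-type and *Lin28a* knockout ES cells express at single-cell level, and 1 library of each was made. Both hold ICM-derived ES cells, grown for 2 days in LIF/2i medium on gelatin with a layer of mouse embryonic fibroblasts (MEFs) as feeders. The WT library is labelled untreated, and the paper describes its clone as wild-type after transfection. The AKO library is labelled as a *Lin28a* knockout and came from cells whose exon 2 of *Lin28a* was targeted by CRISPR. Each library represents 1 clone and 1 culture, so a difference between them cannot be told apart from a difference between clones, cultures or droplet runs, and no test between conditions could be made.

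The inDrop method catches cells in droplets with barcoded primers and counts RNA molecules by their unique molecular identifiers (UMIs). With at least 500 UMIs and at most 20% of them from mitochondrial genes, 1856 WT and 1622 AKO cells were kept, with medians of 6140 and 5064 UMIs. Barcodes are only numbered in the files, so barcodes shared by both libraries could not be counted. Cells in which *Col1a1*, *Col1a2* and *Col3a1* together made up at least 0.3% of UMIs were called fibroblasts. They numbered 48 in WT, 2.59% of kept cells, and 23 in AKO, 1.42%. The paper describes CRISPR targeting in ES cells only, with MEFs added as feeders. For fibroblasts, WT and AKO therefore name the library and not a *Lin28a* genotype. The remaining 1808 WT and 1599 AKO cells are called other cells, with medians of 6112 and 5072 UMIs, while the fibroblasts had medians of 8132 in WT and 2295 in AKO. Levels are given as CPM, the UMIs of a gene scaled to 1000000 UMIs summed over a class of cells. Their 95% intervals, from the Poisson distribution, cover counting error only and not the spread between cells or between cultures.

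Both classes carried the markers of their names. The 12 ES cell genes, among them *Pou5f1* and *Zfp42*, summed to 5121 CPM in WT and 5214 CPM in AKO other cells, against 1068 and 1086 CPM in fibroblasts. The 19 fibroblast genes outside the rule summed to 19904 and 14254 CPM in fibroblasts and to 795 and 756 CPM in other cells, and none of the 19 was at 0 in any class. *Lin28a*, the targeted gene, had 111 CPM in WT and 36.9 CPM in AKO other cells, a ratio of 0.333 (0.295 to 0.376). Counts taken near the 3′ end of a transcript do not read exon 2, so the remaining UMIs say nothing of the edit itself.

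The basement membrane is a thin sheet of matrix under epithelia, built from a network of laminin and a network of type IV collagen that nidogen and perlecan join. In the early embryo the primitive endoderm and its parietal derivative are known as heavy producers of it, under the control of the GATA and SOX transcription factors, and ES cells pushed toward endoderm make it too. Fibroblasts also make type IV collagen, laminin β1 and SPARC, so the matrix genes do not mark endoderm without its regulators. The 9 genes were therefore read in their roles: GATA4, GATA6 and SOX17 are transcription factors of endoderm, and DAB2 is an endocytic adaptor that primitive endoderm uses. These 4 genes are called regulators below for short, although DAB2 is not a transcription factor. *Col4a1* and *Col4a2* encode the α1 and α2 chains that assemble into type IV collagen, *Lama1* and *Lamb1* encode the α1 and β1 chains of laminin-111, and *Sparc* encodes a secreted glycoprotein that binds collagen.

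*Col4a1* and *Col4a2* lie head to head on chromosome 8 of GRCm38, at 11198423 to 11312826 on the minus strand and 11312805 to 11449287 on the plus strand, and their annotated starts are 21 bases apart. The RefSeq windows from 250 bases before to 50 bases after each start (GRCm38.p6) are printed because both genes start in the same stretch, from opposite strands. *Col4a2* and not *Col4a1* was called between the libraries in other cells. The intervals of their ratios overlap, at 0.129 to 0.848 and 0.653 to 1.96, so a difference between the 2 genes was not shown. Capitals mark the 78 bases that both windows hold, read from opposite strands.
Col4a1, chr8:11312777-11313076, minus strand: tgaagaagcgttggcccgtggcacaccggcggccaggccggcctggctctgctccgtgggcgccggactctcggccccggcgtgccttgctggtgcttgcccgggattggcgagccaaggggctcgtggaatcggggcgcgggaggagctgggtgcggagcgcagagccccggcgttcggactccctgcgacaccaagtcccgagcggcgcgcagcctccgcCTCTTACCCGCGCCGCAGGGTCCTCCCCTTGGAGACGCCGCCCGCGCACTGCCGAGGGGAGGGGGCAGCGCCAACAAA
Col4a2, chr8:11312555-11312854, plus strand: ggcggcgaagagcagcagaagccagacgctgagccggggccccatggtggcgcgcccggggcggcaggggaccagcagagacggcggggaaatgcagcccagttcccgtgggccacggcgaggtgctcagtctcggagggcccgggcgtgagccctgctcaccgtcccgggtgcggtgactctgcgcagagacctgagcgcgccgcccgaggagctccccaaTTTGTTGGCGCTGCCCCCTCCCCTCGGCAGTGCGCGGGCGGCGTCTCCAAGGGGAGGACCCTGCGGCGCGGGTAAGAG
The GC content was 74.0% in the *Col4a1* window and 73.7% in the *Col4a2* window, against a median of 52.7% over the 32851 windows of 300 bases in the table. Windows were searched on both strands for AGATAA, a form of the GATA factor motif, and for ACAAT, the core of the SOX motif. Neither was found in the *Col4a1*, *Col4a2*, *Lamb1* or *Sparc* window. The *Sparc* window, at 55420031 to 55420330 on the minus strand of chromosome 11, lies inside the gene as GENCODE annotates it, which reaches to 55423183. AGATAA was present in 11.2% and ACAAT in 31.0% of all windows.

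*Dab2* has 2 windows, and the upstream one, shown for its motif, held AGATAA once, on the minus strand, in capitals.
Dab2, chr15:6299539-6299838, plus strand: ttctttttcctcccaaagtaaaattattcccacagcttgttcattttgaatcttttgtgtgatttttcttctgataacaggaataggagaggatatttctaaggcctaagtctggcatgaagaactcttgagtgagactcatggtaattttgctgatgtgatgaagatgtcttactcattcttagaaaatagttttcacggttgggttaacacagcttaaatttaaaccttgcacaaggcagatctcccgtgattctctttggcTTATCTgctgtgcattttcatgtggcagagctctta
The second *Dab2* window, which starts at base 6386498, held neither motif. A match or its absence describes these letters only. No window was used for *Gata4*, *Gata6*, *Sox17* and *Lama1*.

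The regulators were close to absent from other cells in both libraries. *Gata4* had 19 UMIs in 19 of 1808 WT cells, or 1.70 CPM (1.02 to 2.65), and 15 UMIs in 14 of 1599 AKO cells, or 1.63 CPM (0.910 to 2.68). *Sox17* had 12 UMIs in WT, or 1.07 CPM (0.553 to 1.87), and 13 in AKO, or 1.41 CPM (0.750 to 2.41). *Gata6* had 7 UMIs in WT, or 0.625 CPM (0.251 to 1.29), and 11 in AKO, or 1.19 CPM (0.595 to 2.13). All 3 intervals overlap between the libraries. The ratio of *Gata4* was 0.959 and ran from 0.591 to 1.15 under other choices of processing, so it has no direction. A cell with a UMI nearly always held a single one. The exceptions were 1 WT cell with 2 *Sox17* UMIs and, in AKO, cells with up to 2 *Gata4*, 2 *Gata6* and 3 *Sox17* UMIs. *Dab2* had 20 UMIs in WT, or 1.78 CPM (1.09 to 2.76), and 9 in AKO, or 0.976 CPM (0.446 to 1.85), a ratio of 0.547 (0.219 to 1.26) whose interval spans 1.

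The type IV collagen chains also had few UMIs in other cells. *Col4a1* had 30 UMIs in WT, or 2.68 CPM (1.81 to 3.82), and 28 in AKO, or 3.03 CPM (2.02 to 4.39), with a ratio of AKO over WT of 1.13 (0.653 to 1.96). Under other choices of processing this ratio ran from 0.833 to 1.48, so it has no direction. *Col4a2* had 24 UMIs in 23 WT cells, or 2.14 CPM (1.37 to 3.19), and 7 UMIs in 7 AKO cells, or 0.759 CPM (0.305 to 1.56). Its ratio of 0.354 (0.129 to 0.848) made it the only member called between the libraries in other cells, lower in AKO. A gene was called where the ratio was at least 2 in either direction and its interval left out 1, among genes with at least 20 UMIs over both classes compared. By this rule 3.91% of the 19203 genes compared in other cells were called higher in AKO and 2.04% lower, so 1 call among the 8 members compared is not apart from the background, and it rests on 31 UMIs. Barcodes under 500 UMIs, too shallow to count as cells, had *Col4a2* at 11.4 CPM (3.70 to 26.6) in WT and 4.46 CPM (0.919 to 13.0) in AKO from 5 and 3 UMIs, apart from the interval of other cells in WT and overlapping it in AKO. *Col4a1* was there at 4.56 and 5.94 CPM from 2 and 4 UMIs, with intervals that overlap those of other cells.

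The laminin chains and *Sparc* were measured with more UMIs, and none was called between the libraries. *Lama1* had 184 UMIs in 168 WT cells, or 16.4 CPM (14.1 to 19.0), and 200 UMIs in 173 AKO cells, or 21.7 CPM (18.8 to 24.9). The AKO level was thus above the WT level beyond counting error, with a ratio of 1.32 (1.08 to 1.62), short of the 2-fold needed for a call. *Lamb1* had 93 UMIs in WT, or 8.30 CPM (6.70 to 10.2), and 67 in AKO, or 7.26 CPM (5.63 to 9.22), a ratio of 0.875 (0.630 to 1.21) that turned to 1.35 as the mean of CPM per cell, so it has no direction. In barcodes under 500 UMIs *Lamb1* and *Lama1* each had 6 UMIs in WT, or 13.7 CPM (5.02 to 29.7), and 10 in AKO, or 14.9 CPM (7.12 to 27.3). *Sparc* had 2940 UMIs in WT, or 262 CPM (253 to 272), and 2518 in AKO, or 273 CPM (262 to 284), a ratio of 1.04 (0.986 to 1.10). It was found in 1271 WT cells, 70.3% (68.1 to 72.4, exact binomial), and in 993 AKO cells, 62.1% (59.7 to 64.5). Thinned to 500 UMIs per cell, the shares were 12.6% in WT and 14.0% in AKO (median depths of other cells 6112 and 5072 UMIs), the reverse order of the unthinned shares.

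**Figure D1:**
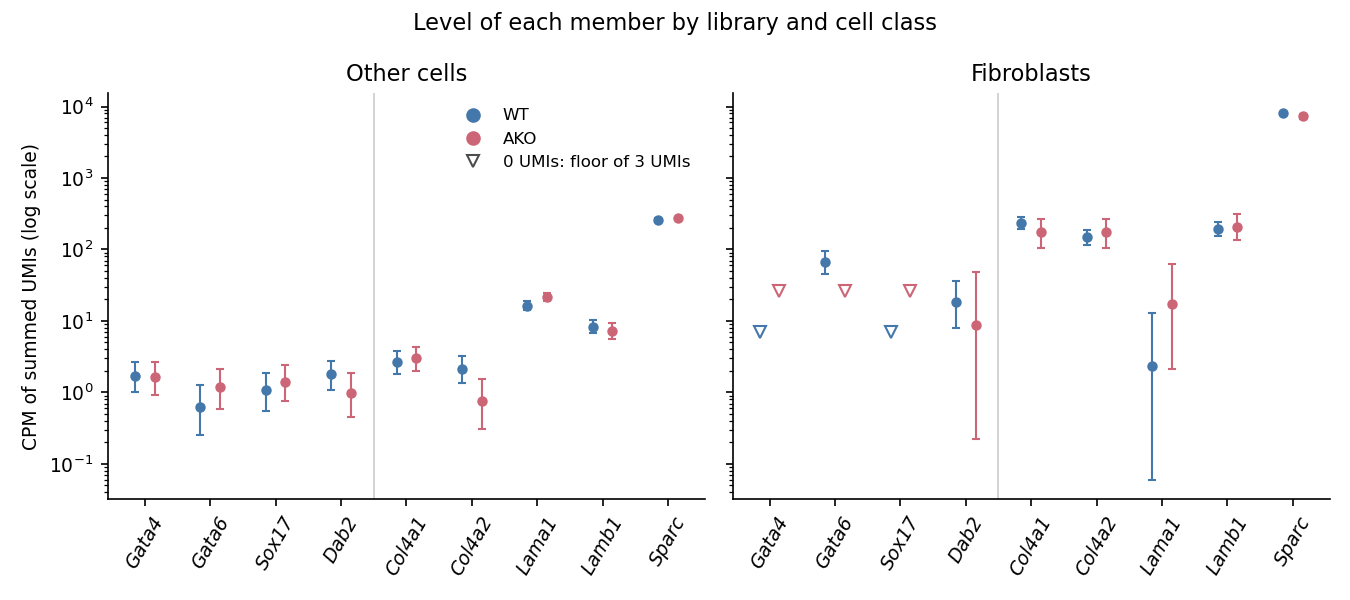
CPM of summed UMIs on a log scale for the 9 genes in other cells (left) and fibroblasts (right), WT in blue and AKO in red, with 95% Poisson intervals as bars, and open triangles for the floor of 3 UMIs where no UMI was found. The regulators sit between 0.625 and 1.78 CPM in other cells, and *Col4a1*, *Col4a2*, *Lamb1* and *Sparc* are higher in fibroblasts while *Lama1* is not.

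In WT fibroblasts 6 members were higher than in other cells, 4 of them matrix genes and 2, *Gata6* and *Dab2*, regulators, while *Lama1* was lower. *Col4a1* had 102 UMIs, or 236 CPM (193 to 287), 88.3 times (58.3 to 137) its level in WT other cells, and *Col4a2* had 64 UMIs, or 148 CPM (114 to 189), 69.2 times (42.7 to 116). *Lamb1* had 84 UMIs, or 195 CPM (155 to 241), 23.5 times (17.2 to 31.9), and *Sparc* had 3507 UMIs, or 8125 CPM (7858 to 8399), 31.0 times (29.5 to 32.5). *Lama1* stood apart from the other matrix genes, with 1 UMI in the 48 cells, or 2.32 CPM (0.0587 to 12.9), against 16.4 CPM in other cells, a ratio of 0.141 (0.00355 to 0.796). That value rests on 1 UMI, and with barcodes of 100 UMIs or more kept the ratio was 0.399 (0.0816 to 1.18), whose interval spans 1. *Gata4* and *Sox17* had no UMI in 431628, which by a floor of 3 UMIs allows up to 6.95 CPM, above their levels in other cells, so that no lower level in fibroblasts could be seen. *Gata6*, with 29 UMIs, was 108 times (46.1 to 291) and *Dab2*, with 8, was 10.4 times (3.96 to 24.6) its level in other cells. The *Gata6* ratio was 62.2 as the mean of CPM per cell and 70.9 with a fibroblast limit of 1% of UMIs. Of the 7 members compared, 6 were called higher and 1, *Lama1*, lower, where 17% of the 16712 genes compared were called higher and 14.8% lower. *Gata6* was compared only through its fibroblast UMIs, with 7 in other cells, and *Lama1* only through its UMIs in other cells. The calls of these genes were thus partly set by the filter. The fibroblasts were chosen by their own collagen counts, and these values describe cells within 1 library.

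The AKO fibroblasts repeated the pattern of the matrix genes from fewer and shallower cells. *Col4a1* and *Col4a2* had 20 UMIs each, or 174 CPM (106 to 268), *Lamb1* had 24, or 208 CPM (134 to 310), and *Sparc* had 837, or 7271 CPM (6786 to 7780). Over AKO other cells these levels were 57.2 times (30.6 to 105) for *Col4a1*, 229 times (93.0 to 641) for *Col4a2*, 28.7 times (17.2 to 46.4) for *Lamb1* and 26.6 times (24.6 to 28.8) for *Sparc*, which was 17.5 times as the mean of CPM per cell. The 4 were called higher out of 5 members compared, where 9.43% of the 16159 genes compared were called higher and 6.28% lower. Here *Col4a2* was compared only through its fibroblast UMIs, with 7 in other cells, while *Gata4*, *Gata6*, *Sox17* and *Dab2* had too few. *Lama1* had 2 UMIs, or 17.4 CPM (2.10 to 62.8), a ratio of 0.801 (0.0964 to 2.93) that includes both 1 and the WT ratio. It was 0.256 as the mean of CPM per cell and 0.509 without the cell with the most *Lama1* UMIs. *Gata4*, *Gata6* and *Sox17* had no UMI in 115122, which allows up to 26.1 CPM, and *Dab2* had 1.

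**Figure D2:**
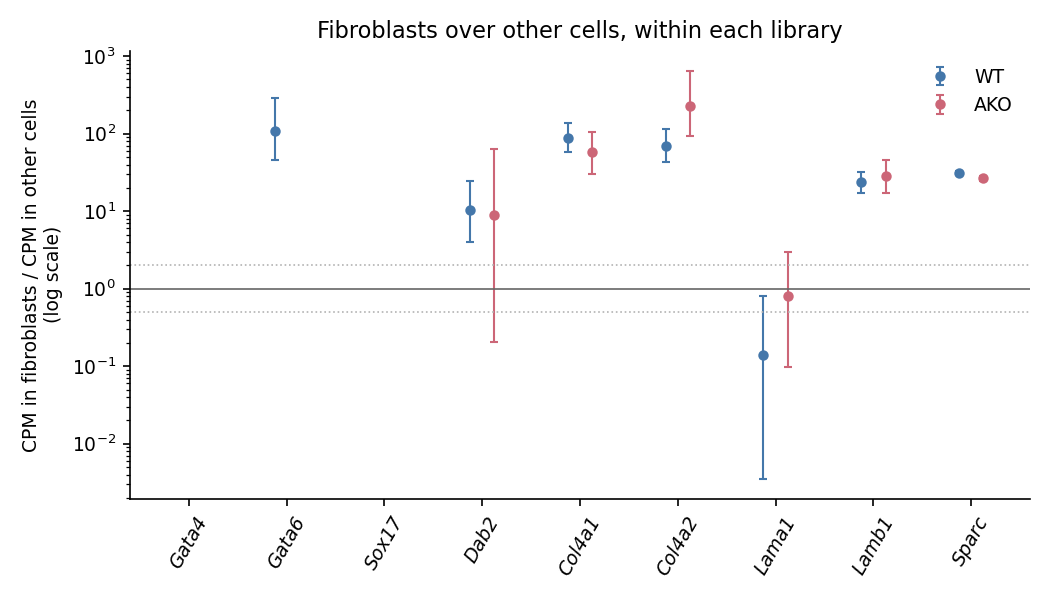
Ratio of CPM in fibroblasts over CPM in other cells of the same library, on a log scale, for members with UMIs in both classes, with 95% intervals as bars, a line at 1 and dotted lines at 2-fold. *Col4a1*, *Col4a2*, *Lamb1* and *Sparc* lie above 20 in both libraries and *Lama1* lies at 0.141 in WT and 0.801 in AKO.

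Single fibroblasts differed widely in the matrix genes. Over the 48 WT fibroblasts *Sparc* ran from 0 to 15697 CPM with a median of 5706, and over the 23 AKO fibroblasts from 0 to 20630 CPM with a median of 4626. *Sparc* was found in 44 of 48 and 20 of 23 of them. *Lamb1* was found in 32 WT and 15 AKO fibroblasts, *Col4a1* in 26 and 10, and *Col4a2* in 22 and 9. These shares move with depth, and at 500 UMIs per cell *Sparc* would be found in 83.2% of WT and 78.1% of AKO fibroblasts, *Lamb1* in 8.69% and 14.0%. The limit of the class cuts a range, as 17 WT and 7 AKO fibroblasts had rule collagens between 0.3% and 1% of UMIs. In AKO, 16 of the 20 *Pou5f1* UMIs of fibroblasts and 166 of their 837 *Sparc* UMIs were in 1 cell of 22723 UMIs. It had 0.717% rule collagens.

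Between the libraries, fibroblasts gave a single call. As feeders, these cells were not the ones targeted, so the comparison is between libraries and not between *Lin28a* genotypes. *Gata6*, which lies at 11052064 to 11085635 on the plus strand of chromosome 18, had 29 UMIs in WT, or 67.2 CPM (45.0 to 96.5), and none in AKO, a ratio whose 95% interval reached up to 0.509. It was compared only because WT had 29 UMIs. A *Gata6* UMI was found in 8 of 48 WT fibroblasts, 16.7% (7.48 to 30.2), and in 0 of 23 AKO fibroblasts (0 to 14.8%), and these intervals overlap. *Sparc* had a ratio of AKO over WT of 0.895 (0.829 to 0.965), *Col4a1* of 0.735 (0.431 to 1.20), *Col4a2* of 1.17 (0.672 to 1.96) and *Lamb1* of 1.07 (0.651 to 1.70). Of the 5 members compared, 1 was called lower and 0 higher, where 6.89% of the 4937 genes compared were called lower and 4.07% higher. With libraries scaled by the median of ratios of the genes that had 50 or more UMIs in both classes, AKO fibroblast levels moved down by a factor of 1.20 (0.27 on the log2 scale). The ratios of *Col4a2* and *Lamb1* then turned to 0.973 and 0.889, so neither has a direction, that of *Sparc* became 0.743 (0.688 to 0.801) and that of *Col4a1* 0.610 (0.358 to 0.992), whose interval no longer spans 1.

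The 29 *Gata6* UMIs of WT came from the 8 cells with up to 9 in 1 of them. These 8 cells were deeper than the other 40, with a median of 14394 against 7383 UMIs. Being chosen by a *Gata6* UMI, they had it at 228 CPM (152 to 327), and the other 40 had none among 304237 UMIs. The part of depth in this split was not tested. The 8 cells held no *Gata4*, *Sox17* or *Lama1* UMI and 1 *Dab2* UMI. Their *Sparc* level of 7913 CPM (7432 to 8417) was near the 8214 CPM (7895 to 8542) of the other 40, and *Col1a1* was at 12505 against 12480 CPM. *Col4a1* was at 330 CPM (238 to 446) against 197 CPM (150 to 254), *Col4a2* at 181 (114 to 271) against 135 CPM (96.7 to 183) and *Lamb1* at 126 (71.8 to 204) against 224 CPM (174 to 283), all with overlapping intervals. Of the 19 fibroblast genes, 18 had at least 20 UMIs in the 48 cells, and of these 7 were higher in the 8 cells and 1 lower with intervals that did not overlap, where 3.15% of the 4062 genes compared were higher and 2.49% lower. These intervals leave out the spread between cells, so a few of the 8 cells can make such a difference. *Timp3*, a secreted inhibitor of metalloproteases, was at 5322 CPM (4929 to 5738) against 2311 (2143 to 2488) and *Lgals1*, a galectin, at 3737 (3408 to 4088) against 2879 (2692 to 3077), while *Vim*, the filament protein vimentin, was at 3729 against 3826 CPM and *Fn1*, fibronectin, at 1327 against 1285 CPM, both with overlapping intervals. The gene that was lower was *Thbs1*, a matricellular protein named here after its values were seen, at 683 CPM (547 to 842) against 1055 (943 to 1177). Of the rule collagens *Col1a2* was lower, at 3996 (3656 to 4358) against 4661 CPM (4421 to 4910), and *Col3a1* higher, at 1829 (1602 to 2080) against 1095 CPM (980 to 1219). In these 8 cells 0 UMIs of *Gata4* and *Sox17* allow up to 23.5 CPM by the same floor, so low levels of either could not be seen.

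Fibroblasts held a larger share of the UMIs of the type IV collagens, *Lamb1* and *Sparc* than of all UMIs, in both libraries. In WT, 54.4% of the *Sparc* UMIs of kept cells, 77.3% of those of *Col4a1*, 72.7% of *Col4a2*, 47.5% of *Lamb1* and 80.6% of *Gata6* were in the 48 fibroblasts, which held 3.71% of all UMIs. In AKO the 23 fibroblasts held 1.23% of all UMIs and 24.9% of *Sparc*, 41.7% of *Col4a1*, 74.1% of *Col4a2* and 26.4% of *Lamb1*, and none of the 11 *Gata6* UMIs. *Gata4* and *Sox17* had 0 UMIs in the fibroblasts of either library. Over all kept cells *Sparc* then had 554 CPM in WT and 359 CPM in AKO, a ratio of 0.648 (0.622 to 0.676), although the ratio in other cells was 1.04. *Col4a1* had 11.3 CPM in WT and 5.14 in AKO, a ratio of 0.453 (0.319 to 0.635), against 1.13 in other cells. *Gata6* likewise had a ratio of 0.381 (0.175 to 0.765) over all cells and 1.91 (0.676 to 5.81) in other cells, where it was 4.82 as the mean of CPM per cell and 1.12 (0.448 to 2.77) with a fibroblast limit of 1%. *Lama1*, of which fibroblasts held 0.541% in WT and 0.990% in AKO, had 1.36 (1.11 to 1.67) over all cells and 1.32 in other cells.

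**Figure D3:**
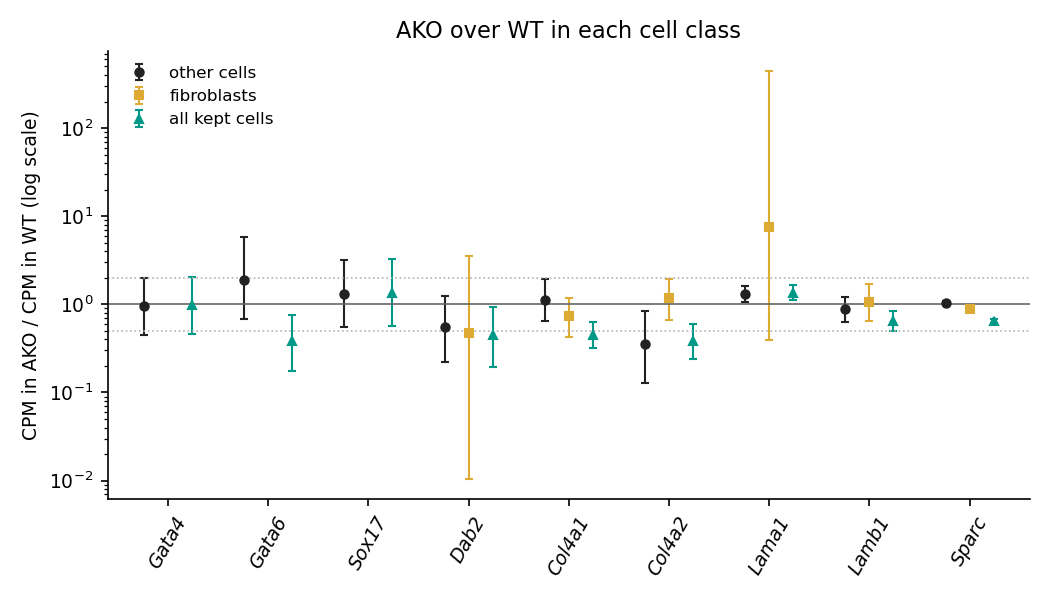
Ratio of CPM in AKO over CPM in WT on a log scale in other cells (black circles), fibroblasts (yellow squares) and all kept cells (green triangles), for members with UMIs in both libraries, with 95% intervals, a line at 1 and dotted lines at 2-fold. *Sparc* lies at 1.04 in other cells, 0.895 in fibroblasts and 0.648 over all kept cells, and *Col4a2* lies below 1 in other cells.

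The proportion of *Sparc* to RNAs of the fibroblast list differed between the classes in a direction that depended on the gene it was set against. Per UMI of *Timp3*, which the rule did not use, there were 2.54 *Sparc* UMIs (2.39 to 2.70) in WT fibroblasts and 48.2 (37.4 to 63.2) in WT other cells, and in AKO 7.28 (5.98 to 8.92) and 58.6 (43.3 to 81.1). Per UMI of *Lgals1* the values were 2.59 (2.44 to 2.76) and 3.83 (3.54 to 4.16) in WT, and 1.49 (1.34 to 1.67) and 4.80 (4.36 to 5.28) in AKO. Per UMI of *Vim* the order turned, with 2.14 (2.02 to 2.27) in WT fibroblasts and 1.01 (0.958 to 1.06) in WT other cells, and 3.79 (3.26 to 4.41) and 1.16 (1.10 to 1.23) in AKO. It turned likewise per UMI of *Fn1*, at 6.26 and 0.674 in WT and 10.5 and 0.723 in AKO. Against the sum of the 19 fibroblast genes there were 0.408 (0.392 to 0.425) *Sparc* UMIs in WT fibroblasts, 0.330 (0.316 to 0.344) in WT other cells and 0.303 (0.253 to 0.360) in WT barcodes under 500 UMIs. In AKO these values were 0.510 (0.469 to 0.555), 0.361 (0.345 to 0.378) and 0.343 (0.294 to 0.399). Against this sum, other cells and shallow barcodes thus had overlapping intervals in both libraries, as they had per UMI of *Lgals1* and of *Vim*. In other cells the sum was mostly *Fn1* and *Vim*, with 4364 and 2915 of 8911 UMIs in WT and 3484 and 2166 of 6972 in AKO. WT fibroblasts held fewer, 560 and 1639. The sum and the values per *Vim* and *Fn1* therefore do not set *Sparc* against RNA of fibroblasts alone. Per UMI of *Timp3* shallow barcodes were apart from and below other cells, at 5.45 (3.70 to 8.28) in WT and 13.5 (8.27 to 23.6) in AKO. Per UMI of *Fn1* they were above them, at 1.06 (0.851 to 1.33) in WT and, with a slight overlap, 0.913 (0.760 to 1.10) in AKO. The *Sparc* level in those shallow barcodes, 385 CPM (329 to 448) in WT and 342 CPM (299 to 389) in AKO, was above that of other cells, 262 and 273 CPM, and how much free RNA adds to single other cells was not tested. *Lama1* had 3.02 UMIs (2.25 to 4.10) per *Timp3* UMI in WT other cells and 0.000724 (1.83e-05 to 0.00404) in WT fibroblasts.

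*Sparc* UMIs were spread over many other cells. In the 1196 WT other cells with at least 5000 UMIs its quartiles were 120, 207 and 373 CPM and its highest value 1513 CPM, and in the 812 AKO cells 114, 222 and 362 CPM with a highest value of 3527 CPM. By depth, WT other cells of 500 to 1000 UMIs had 615 CPM (469 to 792), those of 5000 to 10000 had 250 CPM (239 to 262) and those of 10000 or more 280 CPM (258 to 303). AKO cells had 417 CPM (335 to 513), 261 CPM (244 to 278) and 249 CPM (234 to 265) in the same ranges. In WT cells of 500 to 1000 UMIs, 2 cells rich in *Sparc* (at least 5 UMIs and 2000 CPM of it), with more fibroblast than ES gene UMIs, held 22 of the 60 *Sparc* UMIs, and without such cells the level was 396 CPM (280 to 544) in WT and 395 CPM (315 to 489) in AKO. Such cells were chosen by *Sparc* itself, so leaving them out can only lower its level. Over cells with more ES than fibroblast gene UMIs the levels at this depth were 397 CPM (266 to 570) in WT and 371 CPM (284 to 475) in AKO. The intervals of the libraries did not overlap in cells of 2000 to 5000 UMIs, with 267 CPM (242 to 293) in WT and 360 CPM (323 to 399) in AKO. Of the 357 AKO UMIs there 93 were in 4 cells rich in *Sparc*, and without such cells the levels were 256 CPM (232 to 282) and 269 CPM (238 to 304), which overlap. Over cells with more ES than fibroblast gene UMIs, a choice that does not use *Sparc*, they were 257 CPM (233 to 283) and 272 CPM (240 to 307). In cells of 10000 or more UMIs either choice gave 280 CPM in WT and 234 CPM (220 to 250) in AKO, with intervals that do not overlap and the order turned. From 2000 to 5000 UMIs the *Lama1* levels were 15.6 CPM (10.1 to 23.0) in WT and 32.3 CPM (22.1 to 45.5) in AKO, with a slight overlap. From 5000 to 10000 UMIs its levels were 16.1 CPM (13.3 to 19.3) and 18.4 CPM (14.3 to 23.4), whose intervals overlap.

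**Figure D4:**
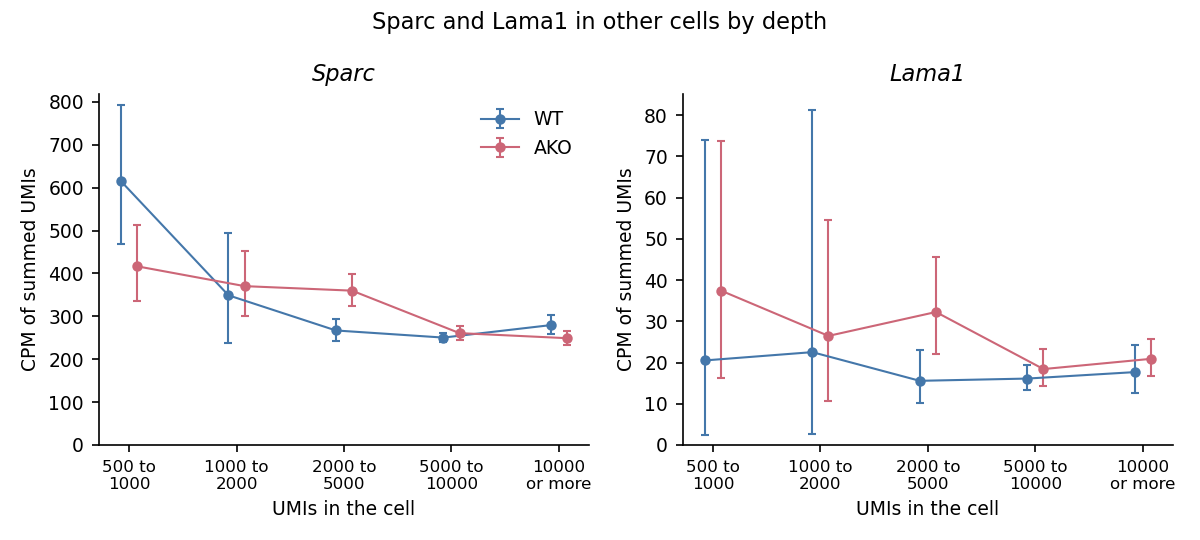
CPM of summed UMIs of *Sparc* (left) and *Lama1* (right) in other cells by the number of UMIs in the cell, WT in blue and AKO in red, with 95% Poisson intervals. The *Sparc* level is highest in the shallowest cells, at 615 CPM in WT and 417 CPM in AKO. Without the cells rich in *Sparc*, chosen by *Sparc* itself and included in the plot, it is 396 and 395 CPM.

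A few other cells were rich in *Sparc*. With the limits of 5 *Sparc* UMIs and 2000 CPM, chosen after the values were seen, there were 4 such cells in WT with 47 *Sparc* UMIs and 7 in AKO with 179. They had 0, 0, 0 and 2 rule collagen UMIs in WT and from 0 to 45 in AKO. All 4 WT cells and 6 of the 7 AKO cells had more UMIs of the 19 fibroblast genes than of the 12 ES cell genes, and the fibroblast genes summed to 18042 and 12028 CPM in them. *Vim* was at 5768 and 2155 CPM there, against 257 and 227 CPM in the rest of the other cells, and *Lgals1* at 5472 and 3136 CPM against 65.2 and 44.6 CPM. The 24 extraembryonic endoderm genes summed to 296 CPM (35.8 to 1068) in the WT cells, against 693 CPM in the rest, and to 1800 CPM (1392 to 2290) in the AKO cells, against 725 CPM. That list holds *Serpinh1* and *Ctsl*, which were both higher in fibroblasts than in other cells, and their part in the sum was not tested. None of the cells rich in *Sparc* held a UMI of *Gata4*, *Gata6*, *Sox17*, *Dab2*, *Col4a2* or *Lama1*. For a gene without a UMI the interval reached up to 546 CPM in the WT cells and 101 CPM in the AKO cells. Both limits lie above the level of each of these genes in the rest of the other cells. The absence of UMIs therefore does not show lower levels of these genes in the cells rich in *Sparc*. *Col4a1* was found in 3 of the AKO cells and *Lamb1* in 2. Over the 1762 WT and 1503 AKO other cells with more ES than fibroblast gene UMIs, *Sparc* was at 258 and 253 CPM, a ratio of 0.981 (0.928 to 1.04), *Lama1* had a ratio of 1.31 (1.07 to 1.62) and *Col4a2* one of 0.358 (0.130 to 0.856).

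**Figure D5:**
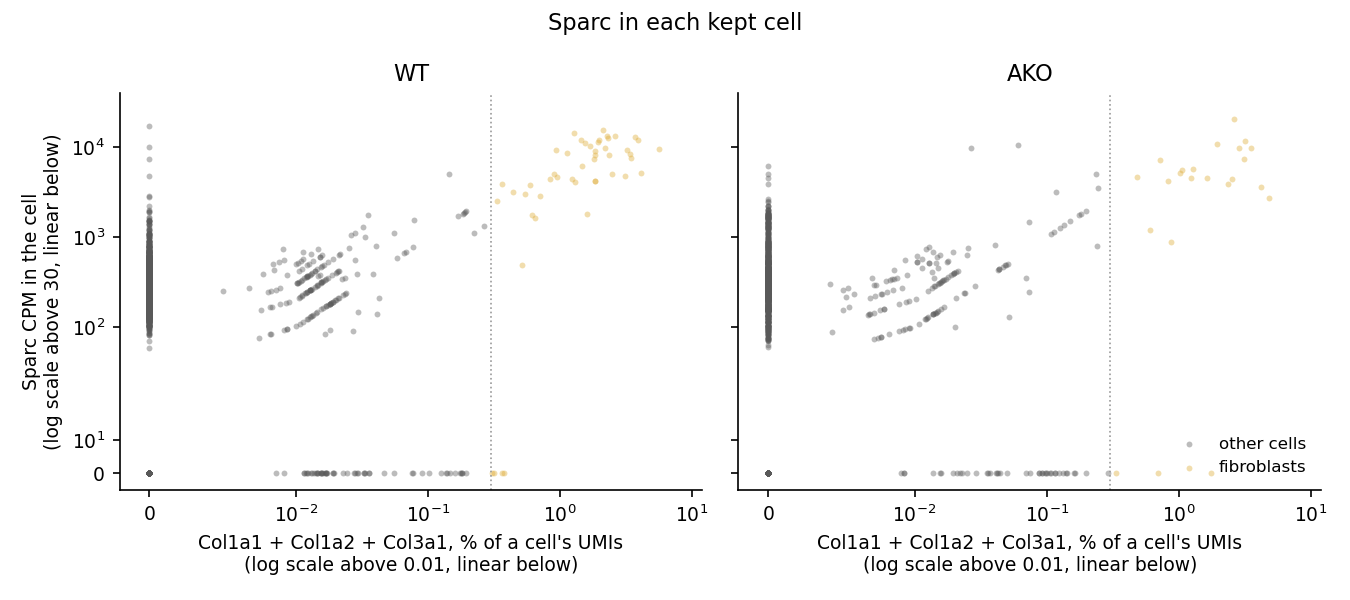
*Sparc* CPM in each kept cell against the share of the cell's UMIs from *Col1a1*, *Col1a2* and *Col3a1*, for WT (left) and AKO (right), with other cells in grey, fibroblasts in yellow and a dotted line at the 0.3% limit, on log scales that are linear near 0. Fibroblasts lie mostly above 1000 CPM, and most other cells with *Sparc* lie near 100 to 1000 CPM with no collagen UMI. A line of points comes from cells with the same small number of UMIs of a gene.

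In other cells 2 or more members were found in 265 WT cells, 14.7% (13.1 to 16.4), and 224 AKO cells, 14.0% (12.3 to 15.8). With *Sparc* left out, 2 or more were found in 34 WT cells, 1.88% (1.31 to 2.62), and 28 AKO cells, 1.75% (1.17 to 2.52). Of 1808 WT other cells 469 had no member, 1074 had 1, 239 had 2, 25 had 3 and 1 had 4, and of 1599 AKO cells 540 had none, 835 had 1, 201 had 2, 22 had 3 and 1 had 4. A regulator UMI was found in 57 WT and 42 AKO other cells, and UMIs of 2 regulators in 0 WT and 2 AKO cells. Any of *Col4a1*, *Col4a2*, *Lama1* and *Lamb1* was found in 28.1% (17 to 41.5) of WT cells with a regulator and 15.3% (13.6 to 17.1) of those without, with slightly overlapping intervals, and in 31.0% (17.6 to 47.1) and 15.5% (13.8 to 17.4) in AKO, where they did not overlap. *Lama1* was found in 26.3% (15.5 to 39.7) and 8.74% (7.46 to 10.2) in WT, which do not overlap, and in 21.4% (10.3 to 36.8) and 10.5% (9.05 to 12.2) in AKO, which do. As CPM, *Lama1* was at 36.4 in WT cells with a regulator and 15.6 in those without, and at 24.1 and 21.6 in AKO. The cells with a regulator were deeper, with medians of 6634 against 6097 UMIs in WT and 8231 against 5000 in AKO. Among cells of 5000 to 10000 UMIs, any of the 4 genes was found in 7 of 35 WT cells with a regulator, 20% (8.44 to 36.9), and in 18.1% (15.8 to 20.7) of those without one. In AKO it was found in 5 of 18, 27.8% (9.69 to 53.5), and in 17.6% (14.3 to 21.3). *Lama1* was found there in 17.1% (6.56 to 33.6) and 10.3% (8.50 to 12.4) of WT cells and in 22.2% (6.41 to 47.6) and 12% (9.25 to 15.2) of AKO cells. At this depth all these intervals overlap. Pearson's r between members over the 1600 WT and 1097 AKO other cells with at least 2000 UMIs lay between -0.045 and 0.102. The gene most like the summed matrix members was *S100a11*, with r of 0.032 in WT and 0.175 in AKO, and the one most like the summed regulators *Lrig3*, with 0.013 and 0.180. In counts this sparse such values are no finding.

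Of 24 other markers of extraembryonic endoderm, 12 had enough UMIs to be compared between the libraries in other cells. None of them was called in either direction, where 3.91% of all genes were called higher and 2.04% lower, so the count is near the background. Their median ratio was 1.06 beside 1.07 over all genes compared. Most of their UMIs came from genes that many cell types use. *Apoe*, a lipid carrier, had 358 CPM in WT and 424 CPM in AKO other cells and was at 27.8 and 43.4 CPM in fibroblasts. *Ctsl*, a lysosomal protease, had 150 and 159 CPM, and was called higher in fibroblasts of both libraries, at 454 and 382 CPM.

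A list of 16 further matrix genes held partners of type IV collagen and laminin-111 and chains of other laminins and type IV collagens. Of these, 11 were compared between the libraries in other cells and 0 were called, near the background of 3.91% higher and 2.04% lower, with a median ratio of 1.12. *Lamc1*, the γ1 chain that completes laminin-111, had 110 CPM (1229 UMIs) in WT and 117 CPM (1077 UMIs) in AKO, and stayed near this level in fibroblasts, at 123 and 104 CPM. *Nid1*, the nidogen that links laminin to collagen, had 65.2 and 53.3 CPM, a ratio of 0.818 (0.728 to 0.918). In fibroblasts it was at 287 CPM in WT and 86.9 CPM in AKO, and was called lower in AKO at 0.302 (0.141 to 0.575). *Col18a1*, a collagen of basement membranes, was called higher in AKO fibroblasts, at 295 against 114 CPM (2.60, 1.63 to 4.11). *Fn1* had 389 and 378 CPM in other cells and 1297 and 695 CPM in fibroblasts. Between the libraries in fibroblasts, 1 gene of this list was called higher and 1 lower of 9 compared, where 4.07% of all genes compared were called higher and 6.89% lower. The 19 fibroblast genes differed there as well, with 6 called lower in AKO and 0 higher of 18 compared beside the same 6.89% and 4.07%, and *Timp3* at 999 against 3200 CPM. In other cells 3 of 15 were called higher in AKO and 0 lower, beside 3.91% and 2.04% of all genes, with a median ratio of 1.34 beside 1.07. Their part in the ratios of the members was not tested.

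Genes of collagen and laminin assembly were mostly higher in the fibroblasts. Of 15 such genes 14 were called higher in WT fibroblasts than in other cells out of 15 compared, and 13 of 14 in AKO, none lower, beside 17% of all genes compared called higher in WT and 9.43% in AKO. These genes are not particular to type IV collagen, and the fibroblasts were chosen by *Col1a1*, *Col1a2* and *Col3a1*. The counts therefore say nothing of type IV collagen by itself. *Serpinh1*, the collagen chaperone HSP47, was at 1990 CPM in WT and 1381 CPM in AKO fibroblasts, 21.2 times (19.3 to 23.2) and 22.2 times (18.5 to 26.5) the other cells. Between the libraries in other cells 0 of the 14 compared were called, near the background of 3.91% higher and 2.04% lower, with *Serpinh1* at 94.0 CPM in WT and 62.2 in AKO (0.662, 0.597 to 0.733). *P4hb*, a subunit of prolyl 4-hydroxylase, was at 203 and 280 CPM (1.38, 1.31 to 1.46).

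Among receptors and adhesion genes of the matrix, some were higher and few lower in fibroblasts. Of 14 compared in WT, 7 were called higher and 2 lower in fibroblasts, and in AKO 6 higher and 1 lower of 14. Over all genes 17% were called higher and 14.8% lower in WT and 9.43% and 6.28% in AKO, so the lower calls, 2 and 1 of 14, were near the background. *Itga6*, the laminin-binding integrin chain of epithelia and stem cells, was called lower in fibroblasts, at 46.3 against 165 CPM in WT and 60.8 against 148 CPM in AKO. *Dag1*, dystroglycan, a laminin receptor, had 205 CPM in WT and 136 CPM in AKO other cells, a ratio of 0.664 (0.620 to 0.712), and none of the 14 genes compared was called between the libraries there, beside 3.91% of all genes called higher and 2.04% lower. In fibroblasts 4 of 9 compared were called lower in AKO and 0 higher, beside 6.89% and 4.07% of all genes, *Dag1* among them at 0.456 (0.235 to 0.813).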

How the data were processed

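The deposited values are UMI counts, not normalized, which the authors made with an earlier inDrop pipeline. Each file lists all barcodes (4329 WT and 6060 AKO barcodes, 12079546 and 10027710 UMIs in all). Per the labels the build was mm10 and Seurat 2.3.4 was used; the aligner is not given in the sources used here. UMIs that the files count as ambiguous between genes were 63462 in WT and 58924 in AKO, with at most 1 for any member. GENCODE M21 gave names to 54079 of 54146 identifiers; the files carry an older version of the *Gata6* and *Lama1* identifiers. The limit of 500 UMIs and 20% mitochondrial UMIs follows the study's methods. The members, the fibroblast rule and the gene lists were chosen with earlier results of these data known.

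UMIs were summed per class, with exact Poisson, binomial and conditional ratio intervals at 95%, and a floor of 3 counts. Doublets were kept; Scrublet in scanpy 1.11.5 marked 27 WT and 18 AKO cells. Of each list the 4 genes with the most UMIs could be named, and *Thbs1* was added after its values were seen. Genes most like the members were sought among those found in at least 5% of cells. The calculation was tested on simulated data. Numbered replicates are absent, so no spread between cultures is known. The tools were scipy 1.17.1, numpy 2.4.6, pandas 2.3.3 and matplotlib 3.10.9 in Python 3.11.15.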

Additional observations from a re-analysis of the deposited data

How the results depend on the processing

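The counts of members called were 1 between the libraries in other cells, 1 in fibroblasts, and 6 in WT and 4 in AKO higher in fibroblasts. They stayed within 1.5 times in 58 of 62 pairs of a count and an alternative. The alternatives changed the limits on UMIs, mitochondrial share and rule collagens, the denominator, the scaling, doublets, the weight of cells, the top cell of each gene, the gene filter and the fold. The 4 pairs that moved were all from a filter of 100 UMIs per gene, which changed every count. It gave 0, 0, 3 and 1, since fewer members were compared. Without the cell with the most UMIs of each gene, *Col4a2* had too few UMIs in AKO to be compared and 3 members were called there. No paired analysis was possible because the result comes from no test and each group has 1 sample.

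Of 282 ratios of single members, 271 lay within the interval of the reported value and none that was called reversed. Moved values were those of *Sparc* (0.981 to 1.12 between the libraries in other cells; 23.6 to 32.8 in WT and 17.5 to 28.7 in AKO fibroblasts over other cells) and *Lamb1* (0.875 between the libraries as reported, 1.35 as the mean of CPM per cell); the cause was not tested. Leaving out other cells with rule collagen UMIs, those with more fibroblast than ES gene UMIs, and those rich in *Sparc*, were chosen after seeing the data. *Lama1* in WT fibroblasts over other cells was called lower from 1 UMI in fibroblasts, but at 0.399 (0.0816 to 1.18) it was no longer called with a minimum of 100 UMIs per barcode. Depth limits what can be said of *Gata4* and *Sox17* in fibroblasts, where no UMI was found.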
